A study of Rattus norvegicus with 2 samples.

Results

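The let-7 family is a group of microRNAs (miRNAs) that share the bases with which they find their targets. Of the 635 miRNAs counted in exosomes from cultured rat heart muscle cells, 9 were taken for this account by name alone. They are the 8 let-7 guide arms (let-7a, b, c, d, e, f, g and i, each the 5p arm of its hairpin) and miR-98-5p. Exosomes were collected from the medium of cardiomyocytes of neonatal Wistar rats aged 1 to 2 days. NC-Exo came from cells kept for 48 h without angiotensin II (Ang II), and HC-Exo from cells kept for 48 h with 1 μmol/L Ang II, the hormone used to make them hypertrophic. Both cultures had been enriched by differential adhesion, plated with bromodeoxyuridine and starved of serum before that. Each condition has 1 library, so the differences below have no replicate check, and a test on the reads compares these 2 libraries, not the conditions.

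A miRNA is cut from a hairpin transcript, and its bases 2 to 8, the seed, pair with messenger RNAs that are then repressed. let-7 miRNAs accumulate as cells differentiate, repress growth genes such as Ras and Hmga2, and are held back in early cells by LIN28, which blocks the maturation of their hairpins. In the heart, miR-98 and let-7 are known to act against the growth response to Ang II, and vesicles are one route by which such miRNAs leave a cell.

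The libraries hold 102608 (NC-Exo) and 133155 (HC-Exo) miRNA reads. Levels are given as reads per 1000000 miRNA reads (RPM), where 1 read equals 9.75 RPM in the first library and 7.51 RPM in the second. The 5 cardiomyocyte miRNAs (miR-1a-3p, miR-133a-3p, miR-208a-3p, miR-208b-3p and miR-499-5p) were all detected and summed to 16.7% of NC-Exo and 18.1% of HC-Exo reads. Nearly all of that sum was miR-1a-3p, with 16614 of 17107 reads in NC-Exo and 23271 of 24090 in HC-Exo. Markers of other cells were present too. The endothelial miR-126a arms held 9.11% and 6.68%, the 2 smooth muscle markers 2.30% and 2.69%, and the 3 fibroblast markers 1.52% and 1.22%. The endothelial and fibroblast sums rest on the most abundant row of each, miR-126a-5p and miR-214-3p, both with a log2 ratio of HC-Exo to NC-Exo of -0.49, whereas miR-126a-3p had 0.21, miR-199a-3p 0.41 and miR-199a-5p 1.26. Of 3 red cell markers 2 were detected, at 0.654% and 0.683%, with miR-144-3p at 0 reads. The 4 white cell markers came to 0.136% and 0.172%, and the liver marker miR-122-5p to 0.0136% and 0.0120%. The part of these cells in the let-7 values was not tested. The levels are shares of the miRNA reads of a bulk preparation, so they measure neither the number of vesicles nor the RNA per vesicle. Changes in these 2 cannot be told apart here.

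The mature sequences are shown first because the members differ from each other by very few bases, which limits how far their reads can be separated. All 9 names were found in RefSeq's rat miRNAs (assembly GRCr8), and each mature form is 22 bases long. The seed is in capitals. The prefix mmu, for mouse, is that of the deposited names and is left off in the text.
mmu-let-7a-5p: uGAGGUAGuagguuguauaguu
mmu-let-7b-5p: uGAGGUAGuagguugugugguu
mmu-let-7c-5p: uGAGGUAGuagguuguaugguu
mmu-let-7d-5p: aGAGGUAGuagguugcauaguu
mmu-let-7e-5p: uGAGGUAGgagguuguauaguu
mmu-let-7f-5p: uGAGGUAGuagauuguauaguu
mmu-let-7g-5p: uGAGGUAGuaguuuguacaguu
mmu-let-7i-5p: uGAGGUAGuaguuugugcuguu
mmu-miR-98-5p: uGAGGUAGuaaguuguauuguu

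The seed was the same in all 9, and none of the other 303 listed rows with a rat sequence of the same name carried it. Outside the seed, positions are counted from 1 at the 5′ end and changes are given relative to let-7a-5p. let-7c-5p (A19G), let-7e-5p (U9G) and let-7f-5p (G12A) each differ from let-7a-5p by 1 base, and let-7b-5p differs from let-7c-5p by 1 base. These 5 thus form a chain of sequences 1 base apart, and a read with 1 error can match the name of a neighbour. The other 4 stand at least 2 bases from every member. let-7d-5p carries U1A and U16C, let-7g-5p carries G12U and U18C, let-7i-5p carries G12U, A17G, U18C and A19U, and miR-98-5p carries G11A and A19U. How reads that match several members were assigned is not given in the sources used here.

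As a whole, the family was the largest sum of miRNAs with a common seed among the rows that could be matched to a sequence. The 9 members held 18497 reads in NC-Exo, 18.0% of the library (95% Clopper-Pearson interval 17.8 to 18.3%), and 22838 reads in HC-Exo, 17.2% (16.9 to 17.4%). The HC-Exo level was 0.951 times the NC-Exo level (95% interval from the exact binomial share 0.933 to 0.970), a log2 ratio of -0.07 (-0.10 to -0.04). These intervals cover counting error only, and reads copied by PCR are not independent molecules. Among the 312 rows with a rat sequence of the same name, which hold 67.2% of the NC-Exo and 65.7% of the HC-Exo reads, the next seed sums were those of miR-126a-5p, with 8.65% and 6.15%, and of the miR-23 group, with 7.42% and 6.48%. The miR-125 group followed with 4.71% and 4.95% and miR-24-3p with 4.35% and 5.01%. The largest row without a matched sequence was the muscle miRNA miR-1a-3p, with 16.2% in NC-Exo, below the let-7 sum, and 17.5% in HC-Exo, above it.

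Within the family the reads were very uneven. In NC-Exo let-7c-5p had 6350 reads, against 7647 in HC-Exo, let-7b-5p had 5017 and 6099, and let-7a-5p had 3964 and 4745. These 3 members made up 82.9% of the family in NC-Exo (82.3 to 83.4%) and 81.0% in HC-Exo (80.5 to 81.5%), and they ranked between 3 and 6 among all miRNAs of either library. At the other end, miR-98-5p had 74 and 142 reads, which in HC-Exo was 0.622% of the family, and ranked 99 and 88.

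**Figure D1:**
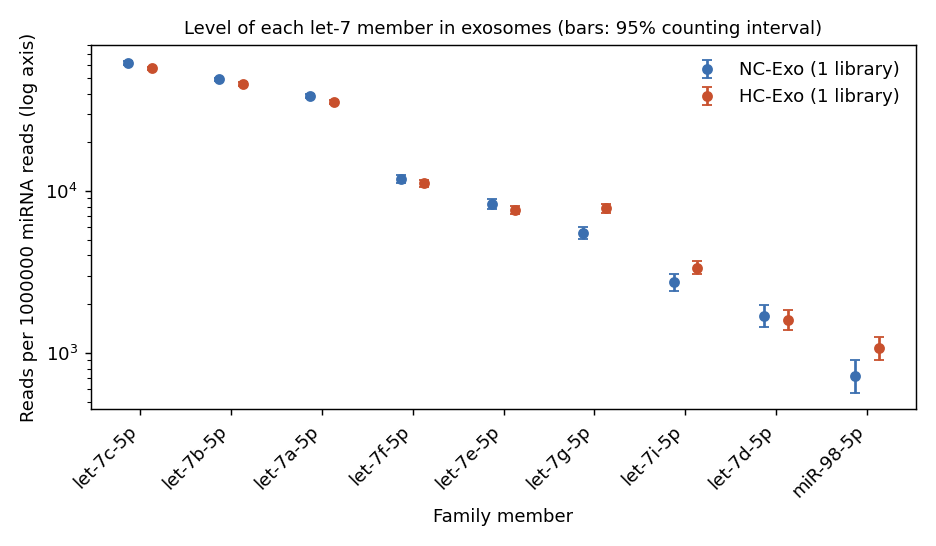
Level of each of the 9 members in reads per 1000000 miRNA reads, on a log axis, in NC-Exo (blue) and HC-Exo (red), with 95% Clopper-Pearson counting intervals and 1 library each. The members run from let-7c-5p at 61886 and 57429 RPM down to miR-98-5p at 721 and 1066 RPM, and let-7g-5p, below let-7e-5p in NC-Exo, stands level with it in HC-Exo.

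The order of the levels in NC-Exo was let-7c, let-7b, let-7a, let-7f, let-7e, let-7g, let-7i, let-7d and miR-98, and each of the 8 steps between neighbours was larger than counting error. The steps were unequal. let-7c-5p stood 1.27 times above let-7b-5p (1.22 to 1.31), whereas let-7a-5p stood 3.25 times above let-7f-5p (3.05 to 3.47). In HC-Exo let-7g-5p (1040 reads) and let-7e-5p (1018 reads) could not be ordered, with a ratio of 1.02 (0.936 to 1.11), although let-7e-5p had been 1.51 times above let-7g-5p in NC-Exo (1.36 to 1.68). The other 7 steps in HC-Exo exceeded counting error. How evenly the members were ligated and amplified was not tested.

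None of the 9 members reached a ratio of 2 in either direction, while 53 of the 340 tested miRNAs did, those with 10 reads or more in the libraries combined (15.6%). That share comes mostly from miRNAs with few reads. Of the 135 miRNAs with 100 or more reads, which include every member, 1 did (0.741%). By the two-sided exact binomial test, with Benjamini-Hochberg adjustment over these 340 miRNAs, 6 members had an adjusted p-value under 0.05, 3 being higher in HC-Exo and 3 lower. Over all tested miRNAs 22.4% passed, 13.8% as higher and 8.53% as lower. The test finds smaller differences at higher counts, and in the same set of 135 miRNAs 43.0% passed, 28.1% higher and 14.8% lower. The median log2 ratio was -0.09 over the 9 members and 0.10 over the 340 miRNAs.

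The 3 members that were higher in HC-Exo are let-7g-5p, let-7i-5p and miR-98-5p. let-7g-5p, known in vessel walls as a repressor of the oxidised lipoprotein receptor LOX-1, had 566 reads (5516 RPM) in NC-Exo and 1040 reads (7810 RPM) in HC-Exo. Its ratio was 1.42 (1.28 to 1.57), a log2 ratio of 0.50, with an adjusted p = 9.30e-10 from the exact binomial test. let-7i-5p, a known repressor of the innate immune receptor TLR4, had 280 reads (2729 RPM) and 447 reads (3357 RPM). Its ratio of 1.23 was the smallest of the 3 (1.06 to 1.43), and its adjusted p = 0.0342 in the exact binomial test lay close to the threshold. It no longer passed under TMM, DESeq2 or upper-quartile factors or without the 10 most abundant other miRNAs. With library totals, let-7i-5p also did not pass when no filter on reads was applied. miR-98-5p, the member named outside the let-7 series, rose from 721 RPM on 74 reads to 1066 RPM on 142 reads. It had the largest ratio of the family at 1.48, but with the widest interval (1.11 to 1.99, exact binomial test, adjusted p = 0.0314). It no longer passed under TMM or upper-quartile factors, or with library totals and no filter on reads.

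The 3 members that were lower are the most abundant ones, and their differences were small. let-7c-5p went from 61886 to 57429 RPM, a ratio of 0.928 (interval 0.897 to 0.960, adjusted p = 0.000167 by the exact binomial test). let-7b-5p, known also as an extracellular ligand of the RNA sensor TLR7, went from 48895 to 45804 RPM, a ratio of 0.937 (interval 0.902 to 0.973, adjusted p = 0.00529 by the exact binomial test). let-7a-5p, a known repressor of Ras, went from 38632 to 35635 RPM, a ratio of 0.922 (interval 0.884 to 0.962, adjusted p = 0.00196 by the exact binomial test). Thus each of the 3 was lower by a small share that passed the test at these high counts.

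The remaining 3 members did not pass the test. let-7f-5p, which supports vessel growth in endothelial cells, had 1218 and 1487 reads and a ratio of 0.941 (interval 0.872 to 1.02, adjusted p = 0.275 by the exact binomial test). let-7e-5p, whose gene stands beside those of miR-99b and miR-125a, had 854 and 1018 reads and a ratio of 0.919 (interval 0.838 to 1.01, adjusted p = 0.199 by the exact binomial test). let-7d-5p, known as a brake on fibrosis through Hmga2, had 174 and 213 reads and a ratio of 0.943 (interval 0.768 to 1.16, adjusted p = 0.761 by the exact binomial test). Their ratios, from 0.919 to 0.943, lay around those of let-7a, let-7b and let-7c, but their intervals included 1.

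**Figure D2:**
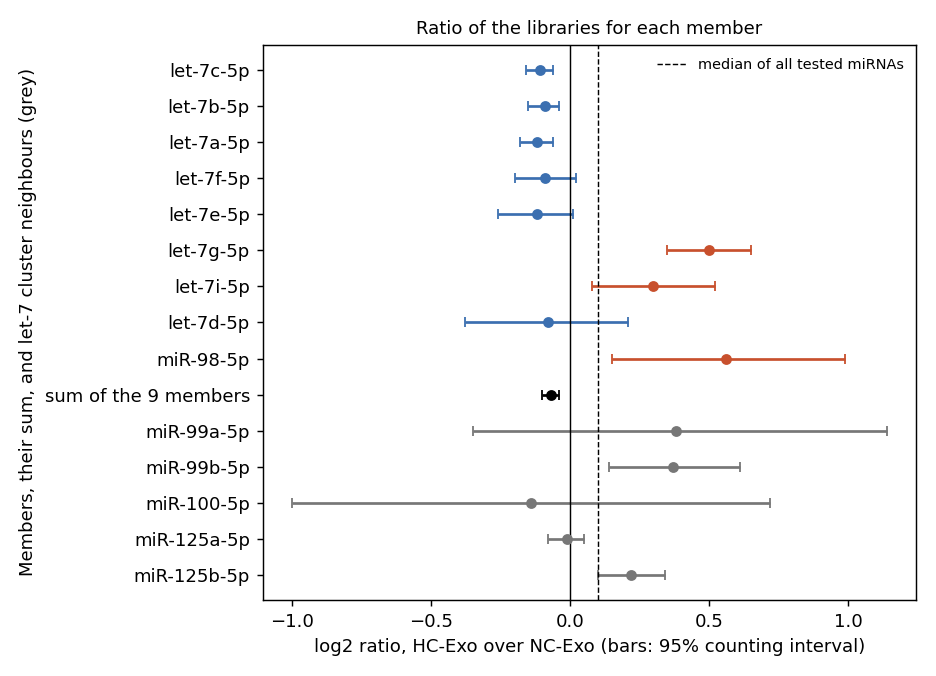
Ratios of HC-Exo to NC-Exo (log2) for each member, their sum and 5 miRNAs with genes within 100 kb of let-7 genes (grey), with 95% exact intervals for counting error. The dashed line marks the median of 0.10 over all tested miRNAs. The 6 members in blue lie between -0.12 and -0.08, and let-7g-5p, let-7i-5p and miR-98-5p in red lie at 0.50, 0.30 and 0.56.

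**Figure D3:**
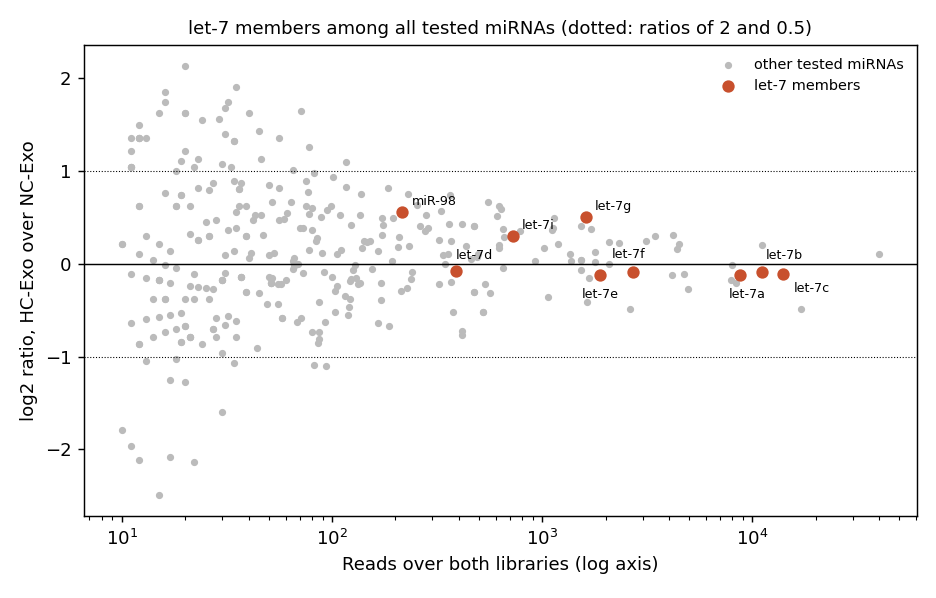
Ratios of HC-Exo to NC-Exo (log2) against the reads over both libraries (log axis) for the 340 tested miRNAs, with the 9 members in red and dotted lines at ratios of 2 and 0.5. The members all lie between the dotted lines, at 216 to 13997 reads over both libraries, and of the 53 miRNAs on or past those lines 1 has at least 100 reads.

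The members were next compared with each other, since the ratio of 2 members within a library does not depend on how the libraries are scaled. Of the 36 pairs of members, 18 had log2 ratios that differed by more than counting error, judged by an exact conditional 95% interval that left out 0 and was not adjusted for the number of pairs. These were the 18 pairs of let-7g, let-7i or miR-98 with 1 of the other 6 members. No interval left out 0 for the 3 pairs among let-7g, let-7i and miR-98 or for the 15 pairs among the other 6. The split into 3 and 6 was drawn after the ratios were seen, so these counts describe it and do not test it. The closest of the 18 pairs was let-7d-5p with let-7i-5p, with a difference of -0.38 (-0.75 to -0.01). Between let-7c-5p and let-7g-5p the difference was -0.61 (-0.77 to -0.45). For the 6 lower members the pairwise intervals still allow differences, of up to 0.37 in size between let-7d-5p and let-7e-5p, so they were not shown to act alike.

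The make-up of the family differed accordingly. let-7g-5p, let-7i-5p and miR-98-5p together had 920 NC-Exo reads, 4.97% of the family (4.66 to 5.30%), and 1629 HC-Exo reads, 7.13% (6.80 to 7.47%). let-7g-5p alone went from 3.06% (2.82 to 3.32%) to 4.55% of the family (4.29 to 4.83%), and its odds against the other 8 members were 1.51 times higher in HC-Exo (1.36 to 1.68). The same odds were 1.30 times higher for let-7i-5p (1.11 to 1.52) and 1.56 times higher for miR-98-5p (1.17 to 2.09). let-7c-5p went from 34.3% (33.6 to 35.0%) to 33.5% (32.9 to 34.1%). Its odds of 0.963 had an interval reaching 1.00 (0.924 to 1.00), and the intervals of let-7a, let-7b, let-7d, let-7e and let-7f included 1. The sum of the other 6 members was 0.930 times its NC-Exo level (0.911 to 0.949). Because the 3 and the 6 were grouped after their ratios were seen, these pooled values describe the split and do not test it.

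The sequences printed above can be set beside this split. The 5 members of the chain 1 base apart were all on the lower side, with log2 ratios from -0.12 to -0.09. Reads with 1 error can pass among these names, so the 5 ratios may not be independent, which was not tested. Of the 4 members at least 2 bases from every other, let-7g, let-7i and miR-98 were on the higher side and let-7d was not. let-7g-5p and let-7i-5p share G12U and U18C, and let-7i-5p and miR-98-5p share A19U. None of these changes is found in the other 6 members, and none of them is common to all 3. Summing the rows of the chain gave 17403 NC-Exo and 20996 HC-Exo reads and a ratio of 0.930 (0.911 to 0.949), so that moving reads among these 5 names would leave that value as it is.

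**Figure D4:**
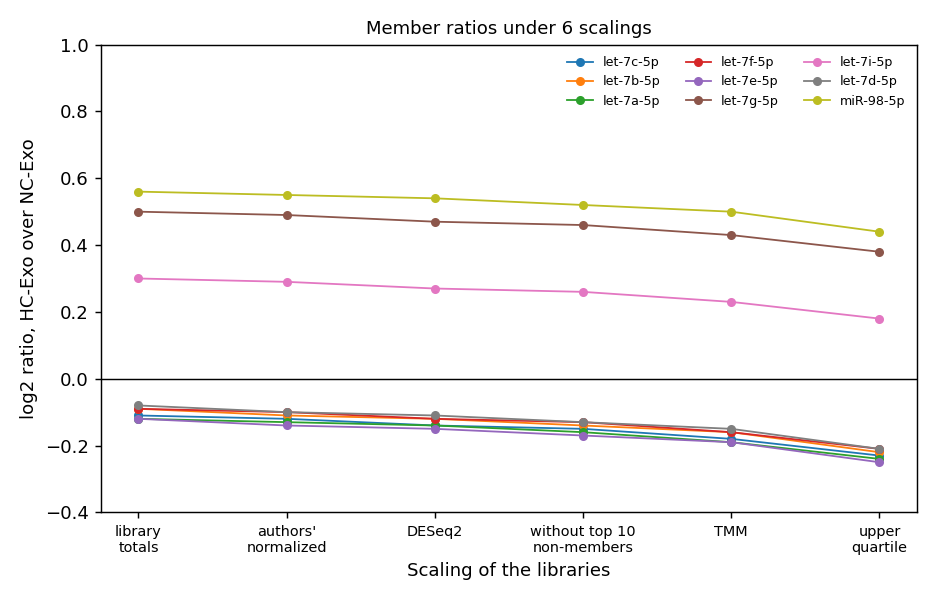
Ratios of HC-Exo to NC-Exo (log2, y axis) for each member under 6 ways of scaling the libraries (x axis, from the library totals on the left to upper-quartile factors on the right). Every scaling shifts all members alike, so the gap between the 3 higher and the 6 lower members stays, and let-7i-5p falls from 0.30 to 0.18 at the right end.

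Because every scaling other than the library totals moved log2 ratios down, by 0.01 to 0.12, the size of a member's ratio rests on that choice. With upper-quartile factors let-7g-5p had a log2 ratio of 0.38 and let-7a-5p one of -0.24. No member changed its direction under any of these scalings. let-7g-5p kept an adjusted p-value under 0.05 in the exact binomial test under each scaling, as did let-7a-5p, let-7b-5p and let-7c-5p. The test allows for counting error and for no spread between cultures. With an assumed coefficient of variation of 0.1 between cultures, edgeR's exact test left 0 of the 9 members with an adjusted p-value under 0.05 and 0 of the 340 miRNAs. At an unadjusted p-value under 0.05 it left 1 member, let-7g-5p, and 55 of the 340.

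In the rat assembly GRCr8 the 9 members are made from 12 genes, 2 each for let-7a, let-7c and let-7f and 1 each for the others. let-7g and let-7i have no other miRNA gene within 100 kb. The let-7g hairpin lies within the spans of Wdr82 and Rpl29, and that of let-7i within a protein-coding gene known by a locus number. The miR-98 hairpin stands beside let-7f-2, both within the span of Huwe1. Whether they are exonic or intronic cannot be read from gene spans, and coordinates are left out because the processing notes name mouse builds. Although they share a locus, miR-98-5p had a log2 ratio of 0.56 (0.15 to 0.99) and let-7f-5p one of -0.09 (-0.20 to 0.02). let-7f-5p is also made at a second locus, beside let-7a-1 and let-7d, and the reads do not tell the loci apart.

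Of the other genes, let-7e stands with miR-99b and miR-125a, let-7a-2 with miR-100 and miR-125b-1, let-7c-1 with miR-99a and miR-125b-2, and let-7c-2 with let-7b. The 5p arms of these neighbours were miR-99a, miR-99b, miR-100, miR-125a and miR-125b. Of the 5, 2 passed the exact binomial test as higher in HC-Exo and 0 as lower, and their median log2 ratio was 0.22, against 0.10 over all tested miRNAs. Higher calls made up 13.8% of all tested miRNAs and 28.1% of those with 100 or more reads, which 3 of the 5 neighbours have. Neither of the 2 passed under TMM or upper-quartile factors. For miR-99b-5p, 242 NC-Exo and 406 HC-Exo reads were counted (ratio 1.29, 1.10 to 1.52, exact binomial test, adjusted p = 0.0109). For miR-125b-5p, long known as a partner of let-7 in developmental timing, the counts were 922 and 1390 (ratio 1.16, 1.07 to 1.26, exact binomial test, adjusted p = 0.00389). miR-125a-5p, with 3487 and 4491 reads, had a ratio of 0.992 (0.949 to 1.04). The 5p arms from the let-7e locus thus had log2 ratios of 0.37 for miR-99b-5p, -0.12 for let-7e-5p and -0.01 for miR-125a-5p. Whether neighbouring genes were read as 1 transcript in these cells was not tested. miR-99a-5p and miR-100-5p had at most 44 reads in a library, which leaves their ratios at 0.785 to 2.21 and 0.499 to 1.65.

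The 3p arms of the same hairpins give a second readout. The 2 hairpins below are shown with both mature arms in capitals, let-7d because its 3p arm held more reads than its 5p arm and let-7g because its 3p arm was nearly absent.
Mirlet7d: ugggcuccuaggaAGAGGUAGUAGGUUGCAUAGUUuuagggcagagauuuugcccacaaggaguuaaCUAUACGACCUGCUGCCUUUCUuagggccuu
Mirlet7g: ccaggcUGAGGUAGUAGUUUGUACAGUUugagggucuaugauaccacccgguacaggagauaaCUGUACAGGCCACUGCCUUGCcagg

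let-7d-3p had 2364 NC-Exo and 2550 HC-Exo reads, which is 13.6 times (11.6 to 15.9) and 12.0 times (10.4 to 13.8) the reads of let-7d-5p. For the other hairpins the 5p arm led, with 2.94 reads of the 3p arm for each 100 of the 5p arm in NC-Exo (2.70 to 3.20) and 2.41 in HC-Exo (2.21 to 2.62). let-7g-3p had 0 and 3 reads, and let-7i-3p had 1 and 6. For the 0, a limit of 0.530 for each 100 5p reads was set by the floor of 3 reads and is not an exact interval. miR-98-3p had 44 and 43 reads, so that its share against miR-98-5p was 59.5 for each 100 in NC-Exo (40.0 to 87.5) and 30.3 in HC-Exo (21.0 to 42.9). let-7a-1-3p and let-7c-2-3p have the same sequence and the same counts, 230 and 243, and were counted once.

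The 12 rows of 3p arms are 11 when the shared sequence is counted once, and 8 of these had enough reads to be tested between the libraries. Of the 8, 6 had a log2 ratio below 0, as did 149 of the 340 tested miRNAs and 54 of the 135 with 100 or more reads. Unlike the 3p arms, the 340 are rows as listed, and 35 of them repeat the counts of another row. By the exact binomial test, adjusted over all 340 miRNAs, 3 were lower in HC-Exo and 0 higher. Lower calls made up 8.53% of all tested miRNAs and 14.8% of those with 100 or more reads, which let-7b-3p and let-7d-3p have. let-7f-1-3p, with 58 and 35 reads, was past a ratio of 0.5, at -1.10 on the log2 scale (-1.75 to -0.48, adjusted p = 0.00316 by the exact binomial test). let-7b-3p, with 90 and 75 reads, was at -0.64 on the same scale (-1.10 to -0.18, adjusted p = 0.0255 by the exact binomial test). For let-7d-3p the value was -0.27 (-0.35 to -0.19, adjusted p = 4.35e-09 by the exact binomial test). The remaining 5 did not pass, and their log2 ratios ran from -0.41 for miR-98-3p, whose 5p arm had 0.56, to 1.04 for let-7e-3p on 6 and 16 reads.

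The reads of the 3p arm relative to the 5p arm were compared directly, with an exact conditional interval not adjusted for the number of hairpins. Of 6 hairpins or groups of hairpins with at least 3 reads of the 3p arm in each library, 3 had an interval that left out no change. These 3 had relatively fewer 3p reads in HC-Exo. The comparison was not made for other miRNAs, so no share over all hairpins can be set beside this count. The log2 difference was -0.97 for miR-98 (-1.75 to -0.20), -0.54 for let-7b (-1.01 to -0.08) and -0.45 for let-7f (-0.80 to -0.10). It was -0.18 for let-7d (-0.49 to 0.12), -0.14 for let-7a with let-7c (-0.41 to 0.12) and 1.16 for let-7e (-0.27 to 2.81). let-7g and let-7i had too few 3p reads to be compared, at most 6 in a library. Their 3p reads for each 100 5p reads were 0.288 in HC-Exo against 0 in NC-Exo for let-7g and 1.34 against 0.357 for let-7i. For let-7i the intervals overlapped (0.490 to 2.94 against 0.00901 to 2.01). For let-7g the HC-Exo interval (0.0594 to 0.845) held the NC-Exo limit of 0.530 set by the floor. No direction can be read from so few reads.

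**Figure D5:**
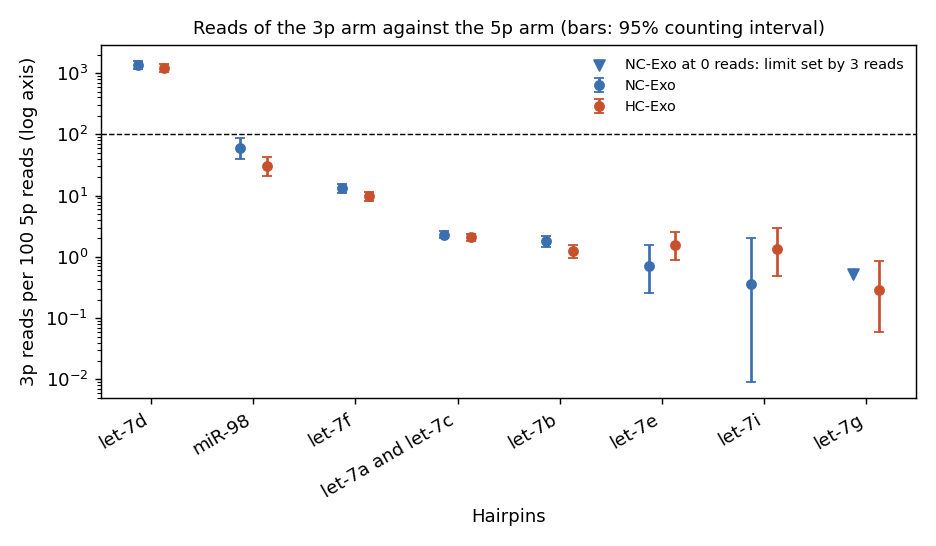
Reads of the 3p arm for each 100 reads of the 5p arm (log axis) by hairpin in NC-Exo (blue) and HC-Exo (red), with 95% exact counting intervals and a dashed line where the arms are equal. The triangle is a limit of 0.530 set by the floor of 3 reads, not an exact interval, for let-7g in NC-Exo, where no 3p read was counted. let-7d stands above the line at 1359 and 1197, and all other hairpins stand below it.

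By its ratio between the libraries, the family sum was nearest to miR-483-3p, miR-483-5p, miR-378a-3p, miR-378c and miR-125a-5p among the 50 other miRNAs with at least 500 reads. Their log2 ratios were -0.07, -0.05, -0.11, -0.12 and -0.01, within 0.06 of the family's. The likeness rests on 1 ratio from 2 libraries. These rows are not all separate, since miR-483-3p and miR-483-5p are by name the arms of 1 hairpin. Whether miR-378a-3p and miR-378c share reads was not tested.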

How the data were processed

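Small RNA of exosomes was sequenced with 1 library for NC-Exo and 1 for HC-Exo. The authors deposited raw counts of reads per mature miRNA under mouse names. Per the labels, the processing used Bowtie2 and the mouse builds mm9 and GRCm38, while the cells came from rats, and trimming and counting are not given in the sources used here. The authors also deposited a normalized signal, which is 12.1 per read in NC-Exo and 9.23 in HC-Exo for the members. A deposited table of the authors' own comparison holds fold changes, p-values and q-values and was not used.

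The members, lists and tests were chosen with earlier results of these data known. Counts were divided by library totals. Those with 10 or more reads in the libraries combined, 340 miRNAs, were tested by a two-sided exact binomial test with Benjamini-Hochberg adjustment. The 340 are rows as listed, and 35 of them that repeat the counts of another row were kept in all shares. The test was checked on simulated reads with counting error alone, planted changes past a ratio of 2, and calls that also had to reach that ratio. The check did not cover smaller ratios called on the p-value alone, as for the members. Quasi-likelihood tests need replicates. Log2 ratios used a floor of 3 reads. Intervals are 95% exact ones. Named miRNAs are the members, their 3p arms, the 5 cluster neighbours, the leading seed sums and the 5 miRNAs nearest in ratio, beside the listed cell type markers and 2 let-7 rows without an arm. Alternatives were other scalings, filters, thresholds, a pseudocount and assumed spreads, in edgeR 4.0.16 and DESeq2 1.42.0 (R 4.3.3), and the rest used Python 3.11.15, scipy 1.17.1, numpy 2.4.6, pandas 2.3.3 and matplotlib 3.10.9. Sequences and gene neighbours are from RefSeq (GRCr8).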

Additional observations from a re-analysis of the deposited data

Results flagged for a closer look

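The count table holds 2 further rows with let-7 names and no arm, which were left out of the comparisons by the rule on names and which had reads above the limit that a count of 0 allows. The counts of let-7j were 175 (NC-Exo) and 259 (HC-Exo), and its log2 ratio was 0.19 (95% exact interval -0.09 to 0.47). let-7k had 109 and 118 reads, a log2 ratio of -0.26 (-0.65 to 0.13). Neither name was matched in the rat sequence table used here, so which reads these rows count was not tested.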

How the results depend on the processing

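No paired analysis was possible because each condition has 1 library, which also leaves no replicate to omit. The log2 ratio of the family sum, -0.07 with library totals, was -0.14 with TMM factors, -0.10 with DESeq2 size factors, -0.20 with upper-quartile factors, -0.11 with totals that leave out the 10 most abundant other miRNAs and -0.09 with the authors' normalized values. It was -0.03 without let-7c-5p and let-7b-5p. Of the settings chosen after the data were examined, leaving out let-7g-5p, let-7i-5p and miR-98-5p gave -0.10 and scaling by the median of the 50 abundant other miRNAs, whose log2 ratio was 0.12, gave -0.19. Adding let-7j and let-7k gave -0.07, as did counting rows of identical counts once.

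The number of members with an adjusted p-value under 0.05 was 6, and 4 to 6 under the other scalings and filters, though not with the same members throughout. The 4 were let-7a-5p, let-7b-5p, let-7c-5p and let-7g-5p, with library totals and no filter on reads. In edgeR's exact test, assumed coefficients of variation of 0.1, 0.2 and 0.4 gave 0, 0 and 0, with 1, 0 and 0 members at an unadjusted p-value under 0.05. None reached a ratio of 2 under any scaling or with 5 reads added, and none reached 1.5 with library totals. The members were also followed under 6 alternatives, which were the 5 other scalings and 5 reads added. Of 54 values, 44 kept direction and side of the threshold and 0 changed sign. The threshold was lost by 6 (let-7i-5p and miR-98-5p) and gained by 4 (let-7e-5p and let-7f-5p). With 5 reads added the test was not rerun, so those values could change in direction only and say nothing about the threshold. The scalings were also applied to the 3p arms and cluster neighbours, a choice made after the data were examined. There let-7f-1-3p, let-7b-3p and let-7d-3p passed throughout, and let-7a-1-3p (TMM, upper-quartile and trimmed totals) and miR-125a-5p (upper-quartile) passed as lower. The family's share was 34.6% (NC-Exo) and 31.9% (HC-Exo) of the reads without the 10 most abundant other miRNAs, and 18.3% and 17.4% with rows of identical counts taken once. With rows 1 base apart summed, the largest share of the family came to 94.1% and 91.9%, against 34.3% and 33.5% for let-7c-5p. In this design the conditions and the cultures cannot be told apart.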
